A study of Mus musculus with 6 samples.

Results

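The voltage-gated calcium channel genes of the mouse heart were examined as 10 genes, namely the pore-forming subunits *Cacna1c*, *Cacna1d*, *Cacna1g* and *Cacna1h*, the α2δ subunits *Cacna2d1* and *Cacna2d2*, the β subunits *Cacnb1*, *Cacnb2* and *Cacnb3*, and *Rrad*, a small GTPase that holds the L-type channel back. They were chosen by name, and all 10 were found among the 16018 genes of the deposited RNAseq table and had a mean of at least 10 normalized counts. The table holds hearts of 3 female mice labelled as mice in which the B and C variants of the sodium bicarbonate cotransporter NBCe1, encoded by *Slc4a4*, are knocked out (NBCe1-B/C KO, here KO; the label of 1 of the 3 is in doubt, as described with the libraries) and of 3 female WT mice, all 4 to 5 weeks old. Per the study's methods, both genotypes come from heterozygous parents on a C57BL/6J background, the kidney variant NBCe1-A is retained in KO mice, and many KO mice die at about this age, so that the animals sampled were survivors. The deletion is carried by the whole animal, not by heart muscle alone. No treatment is given in the labels.

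The L-type channel opens when the heart muscle membrane depolarizes, and the calcium that enters triggers further release from the sarcoplasmic reticulum and starts contraction. Its pore is an α1 subunit, which is held and modulated by an α2δ subunit on the outer face and by a β subunit on the inner face of the membrane. T-type channels, encoded by *Cacna1g* and *Cacna1h*, open at more negative voltages and are best known in the heart from the developing ventricle and from pacemaker tissue.

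In these hearts, the 3 genes of the main L-type complex were higher in every KO library than in any WT library. Of the 16016 genes tested, 15.6% were so. How many of the 10 genes separated in this way moved with the scaling of the libraries, as given below. *Cacna1c* was 1.36-fold, *Cacna2d1* 1.38-fold and *Cacnb2* 1.28-fold higher by the limma estimate, and the T-type gene *Cacna1h* was 1.42-fold higher, with n = 3 hearts per genotype. *Cacna1d*, *Cacna1g*, *Cacnb1* and *Rrad* overlapped between genotypes, with estimates between -0.04 and 0.13 on the log2 scale. *Cacna2d2* and *Cacnb3* had estimates below 0. None of the 10 genes passed an adjusted p of 0.05 with limma, where 0% of the 16016 genes tested did. With DESeq2 on the recovered reads, *Cacna1c*, *Cacna1h*, *Cacna2d1* and *Cacnb2* passed, all upward, against 8.22% of the 11979 genes that test kept. After a trend with transcript length and GC content was subtracted, none of the 10 passed with DESeq2, where 2.38% of genes did.

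Some properties of the libraries touch these values and are given first. *Slc4a4*, the targeted gene, had 264.0, 944.8 and 268.7 normalized counts in the libraries labelled KO replicates 1, 2 and 3. Its values in the 3 WT libraries, in the same order, were 675.1, 822.2 and 788.8. KO replicate 2 thus had the highest level of the 6, which goes against its label and leaves its genotype in doubt, and the direction of each of the 10 genes is also given without it. The summed normalized count of 8 atrial markers was 18162 and 28228 in KO and WT replicate 1 and between 79848 and 119767 in the other 4 libraries. Longer transcripts had higher estimates in KO. Across 15983 genes, which are not independent replicates, Spearman's rho between the log2 fold change and the longest annotated transcript was 0.45, and genes above 5000 nt had a median log2 fold change of 0.18 against -0.0043 over all genes. The reads counted on genes ran from 41364857 to 49100802 per library. The normalized counts totalled 4.81e+07, 4.41e+07 and 4.35e+07 in KO and 4.31e+07, 4.31e+07 and 4.27e+07 in WT replicates 1, 2 and 3. Every KO total was thus above every WT total. The 6 cardiomyocyte markers (*Myh6*, *Actn2*, *Tnnt2*, *Tnni3*, *Ttn*, *Myl2*) summed to 2220639, 2019404 and 1972716 normalized counts in KO replicates 1, 2 and 3. Their sums in WT, in the same order, were 1684541, 1776698 and 1661817. Every KO sum was above every WT sum, with KO replicate 1 the highest. *Myh6* was the largest part of each sum, at 1.26e+06, 1.13e+06 and 1.09e+06 in KO and 7.43e+05, 8.69e+05 and 7.65e+05 in WT. Of the 6 markers, 3 had estimates above 0 and 3 below, so the sums do not speak for all of them. Bulk RNA cannot tell fewer cells of a type from less RNA per cell.

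*Cacna1c* encodes the pore of the L-type channel of working heart muscle. It lies at chr6:118587240-119196418 on the minus strand (GRCm38). It had 15175, 10591 and 10835 normalized counts in KO and 8609, 8500 and 9372 in WT replicates 1, 2 and 3. The lowest KO library stood above the highest WT library, and KO replicate 1 stood far above both other KO libraries. The means were 12200 ± 2579 in KO and 8827 ± 475 in WT (SD, n = 3), a log2 fold change of 0.45 with a standard error of 0.13 (limma, unadjusted p = 0.00765, adjusted p = 0.101). Without KO replicate 1 the estimate was 0.28, and without the library labelled KO replicate 2 it was 0.54.

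*Cacna2d1*, at chr5:15934691-16374511 on the plus strand, encodes the α2δ subunit that goes with this pore in heart muscle. Its normalized counts were 9188, 6696 and 7403 in KO and 5344, 5425 and 5950 in WT, in the order of replicates 1 to 3. The groups did not overlap, and KO replicate 1 was again the highest library. The means were 7762 ± 1285 and 5573 ± 329 (SD, n = 3), and the log2 fold change was 0.47 with a standard error of 0.11 (limma, unadjusted p = 0.00247, adjusted p = 0.0834). It was 0.34 without KO replicate 1 and 0.57 without the library labelled KO replicate 2.

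*Cacnb2*, at chr2:14603088-14987908 on the plus strand, encodes the main β subunit of the heart, which helps the pore to reach the membrane. It had 3491, 2705 and 2848 normalized counts in KO and 2383, 2289 and 2349 in WT replicates 1, 2 and 3. The 3 WT hearts lay close together, and all 3 KO hearts lay above them. The means were 3015 ± 419 and 2340 ± 47.5 (SD, n = 3), and the log2 fold change was 0.36 with a standard error of 0.10 (limma, unadjusted p = 0.00485, adjusted p = 0.0906). It was 0.25 without KO replicate 1 and 0.43 without the library labelled KO replicate 2.

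The 3 genes were also compared with one another within each heart. The ratio of *Cacna2d1* to *Cacna1c* normalized counts was 0.605, 0.632 and 0.683 in KO and 0.621, 0.638 and 0.635 in WT replicates 1, 2 and 3. The ratio of *Cacnb2* to *Cacna1c* was 0.230, 0.255 and 0.263 in KO and 0.277, 0.269 and 0.251 in WT. Both ratios overlapped between genotypes. Such ratios do not depend on the scaling between libraries, and, not being set per length, serve to compare hearts and not genes. KO replicate 1, which carried the highest level of all 3 genes, had the lowest of the 6 values in both ratios. Of the 6 cardiomyocyte markers, *Myh6*, *Actn2* and *Ttn*, which encode a myosin heavy chain, a Z-disc protein and titin, were also higher in every KO than in any WT library, with log2 fold changes of 0.55, 0.37 and 0.47, whereas *Tnnt2*, *Tnni3* and *Myl2* had estimates of -0.09, -0.13 and -0.18. Their part in the channel values was not tested.

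**Figure D1:**
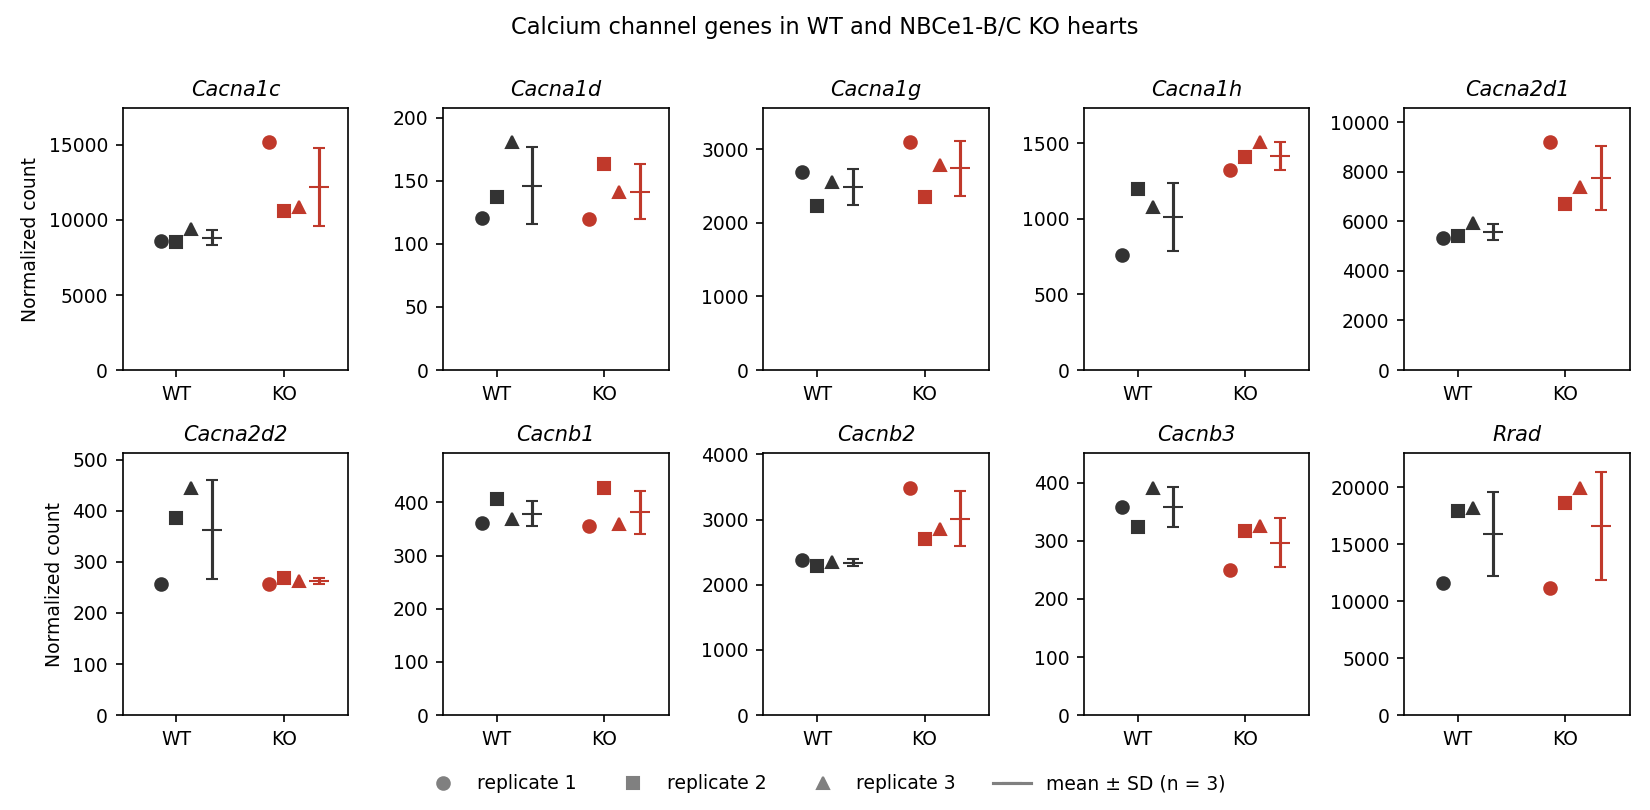
Normalized counts (y axis, linear from 0, a separate scale for each gene) of the 10 genes in 3 WT and 3 KO hearts. Each symbol is 1 library, with its shape giving the replicate number, and the bar is the mean ± SD. All 3 KO symbols lie above all 3 WT symbols for *Cacna1c*, *Cacna1h*, *Cacna2d1* and *Cacnb2*, and the groups overlap for the other 6 genes. Among all genes tested, 15.6% had every KO value above every WT value.

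Annotated starts of these 3 genes are printed because all 3 were higher in each KO heart. They are RefSeq windows of GRCm38.p6, from 250 bases before to 50 bases after an annotated start, 5′ to 3′ on the strand of the gene. Of the 10 genes, 7 matched this table, with 13 windows. Capitals mark matches on either strand. The motifs searched were the GC box, spelled GGGCGG, and the core of the cyclic AMP response element, spelled TGACGT. The other motifs were the TATA box, spelled TATAAA, a site of GATA factors, spelled AGATAA, the MCAT element, spelled CATTCC, and the MEF2 motif. Matches that overlap were counted separately. The table gives 3 starts for *Cacna1c* and a pair for *Cacnb2*, and counts per gene do not say which start was used.
Cacna1c, chr6:119108446-119108745, minus strand: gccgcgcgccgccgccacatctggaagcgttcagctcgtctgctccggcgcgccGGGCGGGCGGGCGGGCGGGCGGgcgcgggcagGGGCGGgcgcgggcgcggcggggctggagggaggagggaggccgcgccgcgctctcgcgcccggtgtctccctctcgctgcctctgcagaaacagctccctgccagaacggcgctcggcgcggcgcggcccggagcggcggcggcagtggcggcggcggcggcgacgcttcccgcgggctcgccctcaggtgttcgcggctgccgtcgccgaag
Cacna2d1, chr5:15934441-15934740, plus strand: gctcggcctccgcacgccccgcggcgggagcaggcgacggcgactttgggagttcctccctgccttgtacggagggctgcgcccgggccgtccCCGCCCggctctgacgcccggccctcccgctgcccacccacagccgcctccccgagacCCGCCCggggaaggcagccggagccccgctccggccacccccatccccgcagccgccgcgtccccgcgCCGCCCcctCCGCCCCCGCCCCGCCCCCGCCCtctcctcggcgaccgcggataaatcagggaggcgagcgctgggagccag
Cacnb2, chr2:14604056-14604355, plus strand: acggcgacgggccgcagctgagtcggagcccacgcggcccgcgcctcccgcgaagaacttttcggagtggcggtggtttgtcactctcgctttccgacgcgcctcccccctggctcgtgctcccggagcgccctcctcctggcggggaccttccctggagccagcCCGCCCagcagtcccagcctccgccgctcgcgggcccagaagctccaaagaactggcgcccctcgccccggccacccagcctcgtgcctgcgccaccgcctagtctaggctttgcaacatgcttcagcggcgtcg
Cacnb2, chr2:14823842-14824141, plus strand: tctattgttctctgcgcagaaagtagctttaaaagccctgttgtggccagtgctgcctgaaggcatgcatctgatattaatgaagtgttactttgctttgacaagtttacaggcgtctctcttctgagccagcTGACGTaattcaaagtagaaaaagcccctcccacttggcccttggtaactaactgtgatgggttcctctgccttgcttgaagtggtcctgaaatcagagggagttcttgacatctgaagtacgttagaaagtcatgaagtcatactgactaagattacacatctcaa

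The GC-rich windows of *Cacna1c* and *Cacna2d1* were 81.3% and 80% G or C, against a median of 52.7% over all 32851 windows, and held 6 and 7 GC box matches. The other windows of *Cacna1c*, not printed, were each 51.3% G or C and held no GC box match. The upstream window of *Cacnb2* was 71.7% G or C with 1 such match, and its downstream window was 44% G or C with none and with 1 TGACGT. The GC box occurs in 35.7% and TGACGT in 7.51% of all windows. None of the 4 windows held the TATA box, the GATA site, the MCAT element or the MEF2 motif, which occur in 13.6%, 11.2%, 14.7% and 3.19% of windows. This says only that these letters are not in these windows. Such starts were not limited to these genes, since a *Cacna1d* window was 87.3% G or C with 6 GC box matches and a *Cacnb1* window 73.7% with 5.

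*Cacna1h*, at chr17:25374285-25433783 on the minus strand, encodes a T-type pore that is prominent in the fetal ventricle. It had 1321, 1410 and 1505 normalized counts in KO and 763, 1200 and 1075 in WT replicates 1, 2 and 3. The lowest KO library exceeded the highest WT library, and in this gene the KO hearts lay close together while the WT hearts were spread. The means were 1412 ± 92.0 and 1013 ± 225 (SD, n = 3), and the log2 fold change was 0.50 with a standard error of 0.15 (limma, unadjusted p = 0.00958, adjusted p = 0.108). WT replicate 1, the WT heart with low atrial markers, was the lowest. The estimate was 0.31 without WT replicate 1, 0.36 without both libraries numbered 1 and 0.50 without the library labelled KO replicate 2.

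*Cacna1g*, at chr11:94408391-94474198 on the minus strand, is the other T-type pore, and per kilobase of transcript the more abundant one here. It had 3093, 2346 and 2786 normalized counts in KO and 2697, 2223 and 2554 in WT replicates 1, 2 and 3. The groups overlapped. The log2 fold change was 0.13 with a 95% interval from -0.12 to 0.39 (limma, adjusted p = 0.510). It was 0.24 without the library labelled KO replicate 2, 0.042 without KO replicate 1 and 0.054 without WT replicate 2. The ratio of *Cacna1h* to *Cacna1g* normalized counts was 0.427, 0.601 and 0.540 in KO and 0.283, 0.540 and 0.421 in WT, which overlapped.

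*Cacna1d*, at chr14:30039939-30491455 on the minus strand, encodes the L-type pore of pacemaker and atrial cells. It had 120, 163 and 141 normalized counts in KO and 121, 137 and 180 in WT replicates 1, 2 and 3, from 118 to 175 reads per library. Per kilobase of transcript, it was the lowest of the 4 pores in every heart. The log2 fold change was -0.04 with a 95% interval from -0.47 to 0.39 (limma, adjusted p = 0.928). The estimate of *Cacna1c*, 0.45, lies above this interval, but its own 95% interval, from 0.15 to 0.74, overlaps it. The difference between the 2 genes was not tested. Without the library labelled KO replicate 2 the estimate was -0.15. Its exons share 589 bases with *Chdh* on the opposite strand, which had between 1.98 and 53.2 normalized counts. How strand was treated in counting is not given in the sources used here.

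*Cacna2d2*, at chr9:107399612-107529343 on the plus strand, is the second α2δ gene. It had 257, 269 and 263 normalized counts in KO and 256, 387 and 445 in WT replicates 1, 2 and 3. The KO hearts were nearly equal, WT replicate 1 matched them, and both other WT hearts were higher. The log2 fold change was -0.42 with a standard error of 0.19 and a 95% interval from -0.85 to 0.00 (limma, unadjusted p = 0.0507, adjusted p = 0.214). Without both libraries numbered 1, it was -0.64 (unadjusted p = 0.00143, adjusted p = 0.347 with limma). Without the library labelled KO replicate 2, it was -0.44, without WT replicate 1 it was -0.66, and without WT replicate 3 it was -0.26.

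Set against its relative, the second α2δ gene was lower in KO in each heart. The ratio of *Cacna2d2* to *Cacna2d1* normalized counts was 0.0280, 0.0401 and 0.0356 in KO and 0.0479, 0.0713 and 0.0749 in WT replicates 1, 2 and 3. The highest KO value lay below the lowest WT value, and the means were 0.0346 ± 0.0061 and 0.0647 ± 0.0146 (SD, n = 3). Within each genotype, replicate 1 had the lowest ratio. The share was chosen as a description and was not tested.

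*Cacnb1*, at chr11:98001508-98023034 on the minus strand, encodes the β subunit best known from skeletal muscle. It had 356, 428 and 360 normalized counts in KO and 362, 406 and 369 in WT replicates 1, 2 and 3. The genotypes lay on top of each other. The log2 fold change was 0.01 with a 95% interval from -0.24 to 0.26 (limma, adjusted p = 0.983), and it was -0.08 without the library labelled KO replicate 2. That library had the highest *Cacnb1* value and also the highest sum of 7 skeletal muscle markers, 2393 normalized counts against 554 to 865 in the others, and the part of the one in the other was not tested.

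*Cacnb3*, at chr15:98630840-98644529 on the plus strand, encodes a β subunit known from neurons and smooth muscle. It had 249, 316 and 325 normalized counts in KO and 359, 323 and 391.8 in WT replicates 1, 2 and 3. The groups touched at KO replicate 3 and WT replicate 2 only. The log2 fold change was -0.27 with a standard error of 0.13 and a 95% interval from -0.58 to 0.03 (limma, adjusted p = 0.255), and -0.15 without KO replicate 1 and -0.32 without the library labelled KO replicate 2. The 5 neuron markers found in the table had a median log2 fold change of -0.44, and none of them passed an unadjusted p of 0.05 with limma. The 6 smooth muscle markers had a median of -0.01, with 3 estimates above 0 and 3 below. The part of either cell type in the *Cacnb3* values was not tested.

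*Rrad*, at chr8:104628070-104631327 on the minus strand, binds β subunits and keeps the L-type current low until β-adrenergic signalling releases it. It had 11183, 18594 and 19978 normalized counts in KO and 11633, 17898 and 18185 in WT replicates 1, 2 and 3. In both genotypes, replicate 1 was far below the other two libraries. Over all 3 replicates the genotypes overlapped, and without replicate 1 both KO values lay above both WT values. The means were 16585 ± 4729 and 15906 ± 3703 (SD, n = 3), and the log2 fold change was 0.04 with a 95% interval from -0.49 to 0.58 (limma, adjusted p = 0.932). Without both libraries numbered 1 the estimate was 0.10, and without the library labelled KO replicate 2 it was -0.06. Per *Cacna1c*, its ratio was 0.737, 1.76 and 1.84 in KO and 1.35, 2.11 and 1.94 in WT, which overlapped.

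Both libraries numbered 1 were the lowest of their genotype for 5 of the 10 genes, *Cacna1d*, *Cacna1h*, *Cacna2d2*, *Cacnb1* and *Rrad*, against 12.6% of all genes tested and for 7 of the 8 atrial markers. The exception among the markers was *Bmp10*, at 301 normalized counts in KO replicate 1. Libraries numbered 1 were the highest of their genotype for 2 of the 10 genes, *Cacna1g* and *Cacnb2*, against 13.9% of all genes tested. *Myl7*, the atrial myosin light chain, had 2972, 13367 and 16862 normalized counts in KO and 6040, 16093 and 18155 in WT replicates 1, 2 and 3. *Sln*, an atrial regulator of the calcium pump, had 677, 3712 and 4197 in KO and 1380, 5116 and 6343 in WT. None of the 8 atrial markers separated the genotypes. Without both libraries numbered 1, the log2 fold change was 0.26 for *Cacna1c*, 0.36 for *Cacna1h*, 0.31 for *Cacna2d1* and 0.26 for *Cacnb2*, with limma adjusted p of 0.347 to 0.355. The part of atrial tissue in the channel values was not tested.

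**Figure D2:**
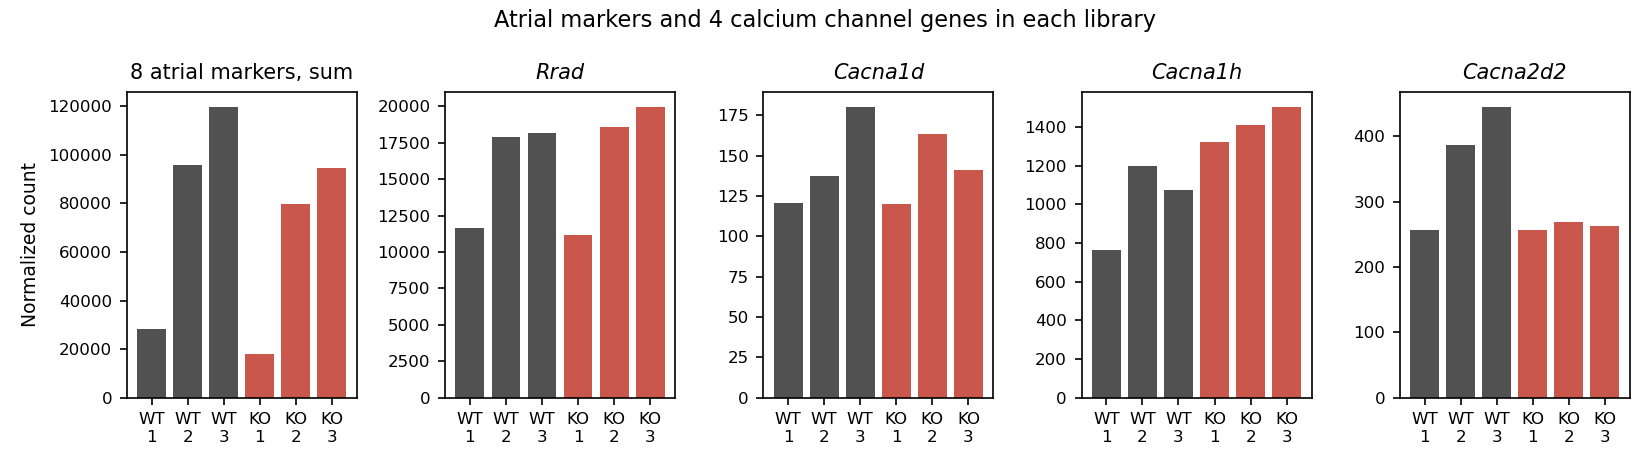
Normalized counts (y axis, linear from 0) of 8 atrial markers summed, and of *Rrad*, *Cacna1d*, *Cacna1h* and *Cacna2d2*, with 1 bar for each of the 6 libraries (WT grey, KO red). The atrial sum is 28228 in WT replicate 1 and 18162 in KO replicate 1 and at least 79848 in the other libraries, and the 4 genes are lowest in replicate 1 within each genotype.

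Per gene, the genotypes differed as follows. Of the 10 genes, 4 had an unadjusted p under 0.05 with limma, all higher in KO (*Cacna1c*, *Cacna1h*, *Cacna2d1*, *Cacnb2*), where 13.0% of all genes were higher and 23.5% were called in either direction. For the same 4 genes, all KO values exceeded all WT values, as for 15.6% of all genes, and in none did all KO values lie below all WT values. These counts moved with the scaling, to 3 above and 1 below with rescaling to the same total, 4 above and 1 below with quantile normalization, and 2 above and 1 below with the length and GC correction. The share of all genes is not given for these scalings, nor for KO below WT in any setting. Such counts thus cannot be set against a background. Without the library labelled KO replicate 2, and likewise without both libraries numbered 1, 5 lay above and 1 below. With the libraries rescaled to the same total, the 10 genes split into 4 higher and 1 lower, *Cacna2d2*, by unadjusted p under 0.05 with limma, and all genes into 1259 higher and 2539 lower, against 2083 and 1681 as deposited. The exact two-sided permutation test gave p = 0.1 for each of the 4, the smallest value that 3 against 3 hearts allow. The median log2 fold change of the 10 genes was 0.09, against -0.0043 over all genes.

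The DESeq2 test gave adjusted p = 0.00638 for *Cacna1c*, 0.0176 for *Cacna1h*, 0.00192 for *Cacna2d1* and 0.0110 for *Cacnb2*. The other 6 had DESeq2 adjusted p of 0.0944 or more. With edgeR's quasi-likelihood test, none of the 10 passed, and the lowest adjusted p was 0.0805 for *Cacna2d1*. The 4 upward calls thus depend on the choice of count model.

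Without the library labelled KO replicate 2, 5 of the 10 had an unadjusted p under 0.05 with limma, all higher in KO, where 11.9% of genes were. *Cacna1g* joined the 4. For the same 5 genes all KO values exceeded all WT values, against 20.7% of genes. DESeq2 without that library called *Cacna1c*, *Cacna2d1* and *Cacnb2* (adjusted p = 0.00419, 0.000274 and 0.00564), where 7.16% of genes were called upward, and gave an adjusted p of 0.0726 for *Cacna1h*. Without both libraries numbered 1, the 4 genes and *Cacna2d2*, the latter lower in KO, had an unadjusted p under 0.05 with limma, against 11.6% of genes in either direction, and all KO values exceeded all WT values for the 4 and for *Rrad*, against 22.2% of genes.

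Most of the 10 genes are long, and transcript length moved with the estimates. Their median longest transcript was 6622 nt, against 3188 nt over all genes, and 7 of the 10 exceeded 5000 nt, as did 20.9% of all genes. The median log2 fold change of these 7 was 0.36, against 0.18 for all 3340 genes of that length. *Cacna1c*, at 13162 nt the longest, moved from 0.45 to 0.18 when the trend with length and GC content was subtracted from each library. *Cacna2d1* moved from 0.47 to 0.30 (unadjusted p = 0.0130, adjusted p = 0.269 with limma), *Cacnb2* from 0.36 to 0.28 (unadjusted p = 0.0156, adjusted p = 0.278 with limma) and *Cacna1h* from 0.50 to 0.32. *Cacna2d2*, with a transcript of 5807 nt, was shifted downward as well, from -0.42 to -0.54 (unadjusted p = 0.0177, adjusted p = 0.284 with limma). On this scale 3 of the 10, *Cacna2d1*, *Cacnb2* and *Cacna2d2*, had an unadjusted p under 0.05, against 14.4% of genes. *Rrad*, at 1577 nt the shortest, moved from 0.04 to 0.20.

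**Figure D3:**
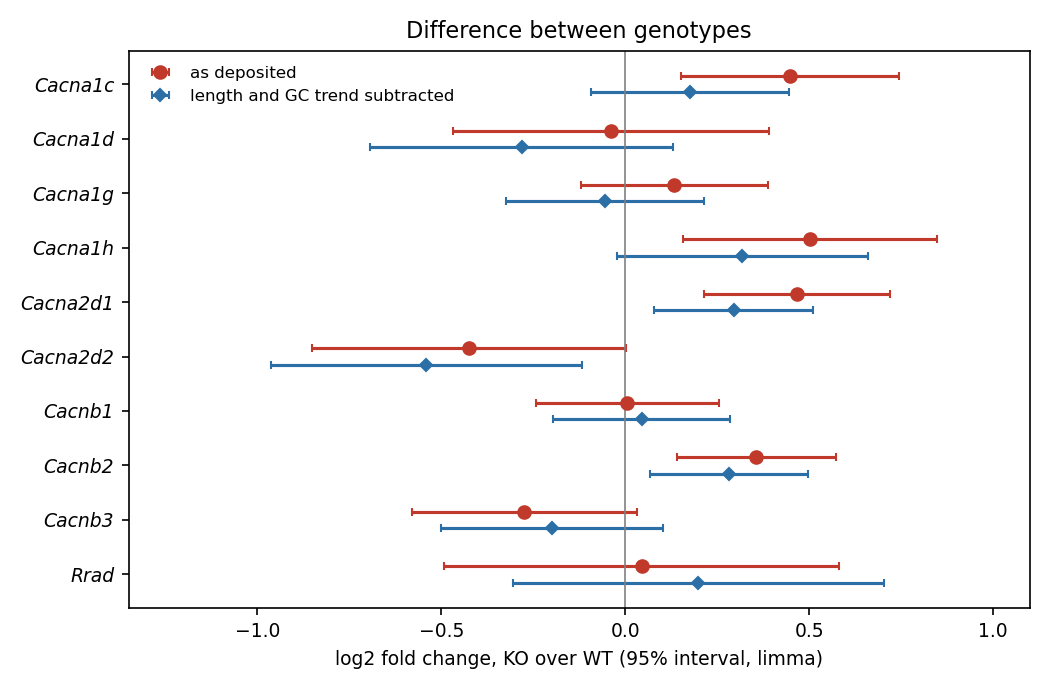
log2 fold change of KO over WT (x axis) for the 10 genes, with 95% intervals from limma over 3 hearts per genotype. Red circles are the values as deposited and blue diamonds those after the trend with transcript length and GC content was subtracted from each library. The interval of *Cacna1c* excludes 0 as deposited (0.15 to 0.74) and includes it after subtraction (-0.09 to 0.45), whereas those of *Cacna2d1* and *Cacnb2* lie above 0 on both scales.

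Levels were compared between genes as normalized counts per kilobase of the longest transcript. *Rrad* was the highest, at 10517 ± 2999 in KO and 10086 ± 2348 in WT (SD, n = 3). *Cacna2d1* followed at 1044 ± 173 and 749 ± 44.2, *Cacna1c* at 927 ± 196 and 671 ± 36.1, and *Cacnb2* at 599 ± 83.3 and 465 ± 9.45. The 3 transcripts of the L-type complex thus lay far below that of the GTPase that restrains it. The T-type pores came next, *Cacna1g* at 327 ± 44.8 and 297 ± 29.0 and *Cacna1h* at 172 ± 11.2 and 123 ± 27.3. *Cacnb3* (109 ± 15.3 and 131 ± 12.5), *Cacnb1* (112 ± 11.9 and 112 ± 7.07), *Cacna2d2* (45.3 ± 1.01 and 62.5 ± 16.7) and *Cacna1d* (14.6 ± 2.24 and 15.1 ± 3.19) were the lowest. Over the 6 libraries the ranges of neighbours overlapped for *Cacna2d1* and *Cacna1c*, *Cacna1c* and *Cacnb2*, *Cacna1h* and *Cacnb3*, and *Cacnb3* and *Cacnb1*. Within each single library, however, *Cacna2d1* stood above *Cacna1c* and *Cacna1c* above *Cacnb2* in 6 of 6. With the length of all merged exons in place of the longest transcript, *Cacna1g* stood above *Cacnb2* in 6 of 6 libraries, while *Cacnb1* stood above *Cacnb3* in 3 of 6.

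**Figure D4:**
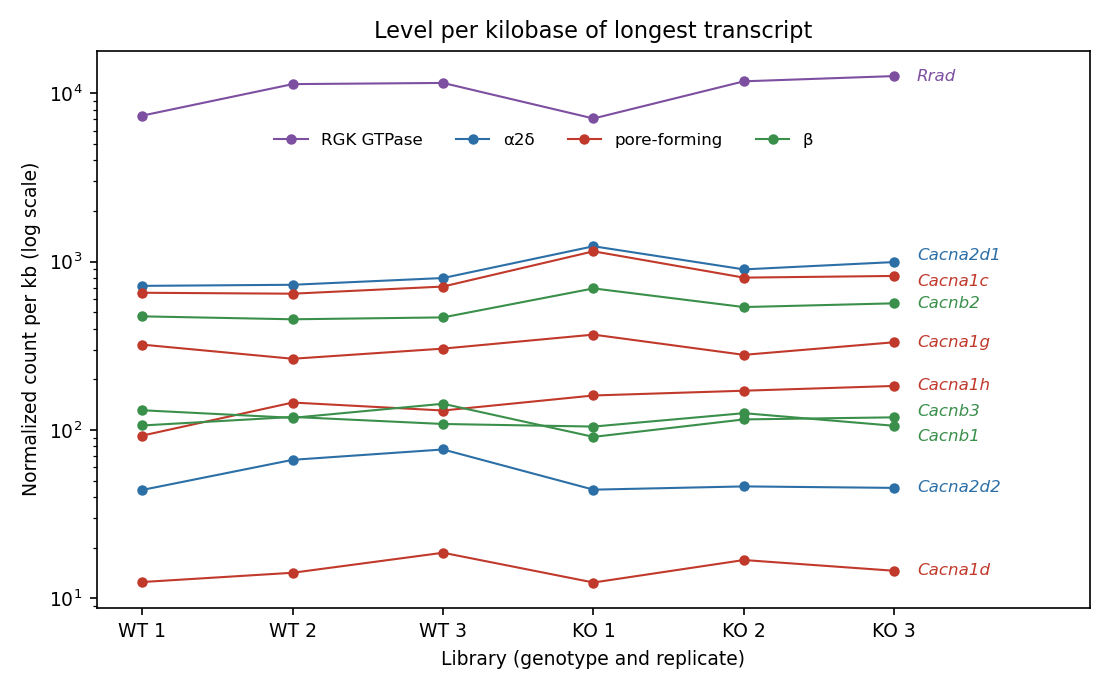
Normalized count per kilobase of the longest transcript (y axis, log scale) of the 10 genes in each of the 6 libraries (x axis), coloured by subunit class. Lines join the values of 1 gene and imply no order of the libraries. *Rrad* lies between 7091 and 12668 and *Cacna1d* between 12.4 and 18.7, and *Cacna2d1* lies above *Cacna1c* and *Cacna1c* above *Cacnb2* in every library.

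Within each class, 1 gene held the largest share of the transcripts per kilobase of the longest transcript. *Cacna1c* made up 68.0, 63.2 and 60.8% of the 4 pores in KO and 60.5, 60.3 and 61.1% in WT replicates 1, 2 and 3, which overlapped. *Cacnb2* made up 78.0, 69.0 and 71.6% of the 3 β subunits in KO and 66.6, 65.7 and 64.9% in WT, which did not overlap. With merged exon lengths, its share was 65.2, 54.1 and 57.3% in KO and 51.6, 50.4 and 49.8% in WT. *Cacna2d1* made up 96.5, 95.1 and 95.6% of the 2 α2δ subunits in KO and 94.2, 91.6 and 91.3% in WT, which did not overlap. With only 2 genes in this class, that share restates the ratio of *Cacna2d2* to *Cacna2d1* given above and is no further result. These shares are descriptions, and were not tested.

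Of 17 other calcium channel genes, 7 were in the table, of which 1 had an unadjusted p under 0.05 with limma, upward, and none downward, against 13.0% of all genes upward. Their median log2 fold change was 0.09. *Cacna1s*, the L-type pore of skeletal muscle, had 447, 340 and 269 normalized counts in KO and 235, 245 and 193 in WT replicates 1, 2 and 3, which did not overlap (log2 fold change 0.62, limma adjusted p = 0.107). Its highest value was in KO replicate 1. The skeletal muscle transcripts *Tnnt3* and *Mylpf* had 11.9 and 26.8 normalized counts there and 802 and 686 in the library labelled KO replicate 2. *Cacna1s* is itself 1 of the 7 skeletal muscle markers summed above. The part of skeletal muscle in its values was not tested. *Cacnb4*, a β subunit best known from the brain, *Cacng6* and *Cacng7*, γ subunits, had log2 fold changes of 0.36, 0.40 and -0.07 with limma adjusted p of 0.490, 0.566 and 0.705. Among the RGK GTPases, the family of *Rrad*, *Gem* and *Rem1* had log2 fold changes of 0.32 and -0.04 (limma adjusted p = 0.397 and 0.888), and *Rem2* was not among the genes of the table.

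Of 30 partners and regulators of the L-type channel, all in the table, 9 had an unadjusted p under 0.05 with limma upward and 2 downward, where 13.0% of all genes were higher and 10.5% lower, with a median log2 fold change of 0.09. None passed an adjusted p of 0.05 with limma, and 3 did with DESeq2, all upward, where 8.22% of genes did. *Prkar2a*, a regulatory subunit of protein kinase A, had 5981, 5139 and 5170 normalized counts in KO and 4208, 4547 and 4199 in WT (log2 fold change 0.33). *Ahnak*, a large scaffold protein that binds β subunits, had 23789, 21103 and 17902 in KO and 16052, 16480 and 15022 in WT (0.39). *Akap6*, which anchors protein kinase A, had a log2 fold change of 0.43, and *Camk2a*, a calmodulin-dependent kinase, of 0.24. Their limma adjusted p were 0.0826 for *Prkar2a*, 0.0891 for *Ahnak*, 0.115 for *Akap6* and 0.115 for *Camk2a*. After subtraction of the trend with length and GC content the 4 values were 0.23, 0.11, 0.16 and 0.16, in the order named.

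Other cell types that express calcium channels were followed by marker lists. Of 7 pacemaker and conduction markers in the table, *Hcn4*, the pacemaker channel, had 1328, 805 and 1059 normalized counts in KO and 626, 780 and 547 in WT (log2 fold change 0.69, limma unadjusted p = 0.00515, adjusted p = 0.0921), and *Tbx3* had a log2 fold change of 0.20 (limma unadjusted p = 0.0300, adjusted p = 0.168). The list summed to 7031 to 7761 normalized counts in KO and 6320 to 6763 in WT. *Smoc2* held most of each sum, and its log2 fold change was 0.06. Estimates were above 0 for 6 of the 7 markers and below 0 for 1, *Shox2* (-0.27). Their median was 0.16, and 0.03 after subtraction of the trend with length and GC content. *Isl1*, a defining marker of the list, was not among the genes of the table. The 6 smooth muscle markers summed to 95465 to 102685 in KO and 78917 to 98179 in WT. *Des* held most of each sum, with 71735, 72327 and 63909 normalized counts in KO and 57116, 63098 and 56025 in WT replicates 1, 2 and 3. By unadjusted p under 0.05 with limma, 1 of the 6 was higher, *Des*, and 1 lower, *Tagln*. Of 4 endothelial markers 1 was higher, of 4 fibroblast markers 2 were higher and 1 lower, and of 4 erythroid markers none was called in either direction, where the same test called 13.0% of all genes higher and 10.5% lower. The part of these cell types in the channel values was not tested.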

How the data were processed

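Total RNA of 6 hearts was sequenced in read pairs by a service company. The submitters' processing notes name Trimmomatic 0.36, STAR 2.5.2b, featureCounts of Subread 1.5.2, DESeq2 and GRCm38. The annotation and the treatment of strand are not given in the sources used here. The authors deposited a signal per gene, namely counts divided by a size factor (0.962 to 1.128) for each library. Multiplied back, 100% of these signal values were whole read counts within 0.001 reads, and 0 columns were left unmatched.

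The log2 of the normalized count plus 1, which understates changes of low genes, was fitted in limma 3.58.1 under R 4.3.3 with a variance trend. Tests were two-sided, and p-values were adjusted by Benjamini-Hochberg over 16016 genes whose mean was 10 or more. edgeR 4.0.16 and DESeq2 1.42.0 were run on the recovered reads. The correction for length and GC content subtracts from each library's deviations a spline fit of 5 degrees of freedom in each. The limma, edgeR and DESeq2 fits were tested on simulated counts, in which no trend with length or GC content was set. The correction for length and GC content was not part of that test. Positions, lengths and symbols are from GENCODE M21 (GRCm38), and starts from RefSeq. No pair of libraries shared more than 1.4% of read counts over genes, so none was counted as a duplicate. Nothing in the labels says that the replicates are separate litters, so p-values measure only the spread between these samples.

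All 10 genes are named, with *Slc4a4*, and of each other list the genes past the threshold or at most 4 of lowest p. Members and lists were chosen with earlier results of these data known. The atrial markers *Myl7*, *Sln* and *Bmp10*, the cardiomyocyte markers, the conduction marker *Smoc2* and the skeletal muscle transcripts *Tnnt3* and *Mylpf* were named after their values were seen. Alternatives were pseudocounts of 0.5 and 5, other filters on low values, rescaling, quantile normalization, no variance trend, the replicate block, each library left out, merged exon lengths, and both count models. Those that leave out both libraries numbered 1, or combine DESeq2 with a left-out library or with the correction, were added after seeing the data.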

Additional observations from a re-analysis of the deposited data

How the results depend on the processing

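The estimates of *Cacna1c*, *Cacna1h*, *Cacna2d1*, *Cacna2d2*, *Cacnb2* and *Cacnb3* kept their direction under all 20 alternatives. For several of these the direction was fixed beforehand. The filters on low values, no variance trend and the replicate block leave the estimate itself unchanged, as for *Cacna1c* at 0.448. Nor could leaving out libraries reverse a gene whose KO values all exceeded all WT values. The number of the 10 genes past an adjusted p of 0.05 was 0 with limma and edgeR and with each library left out, and moved to 4 with DESeq2 and to 3 with DESeq2 without KO replicate 2. The cause was not tested. The number of genes whose genotypes did not overlap was 4 above and 0 below WT, and 3 and 1 with rescaling, 4 and 1 with quantile normalization and 2 and 1 with the length and GC correction. Of these counts, only the 4 above WT as deposited can be set against a share of all genes, 15.6%. The log2 fold changes near 0 changed sign. That of *Cacna1d* became 0.014 with quantile normalization and ran from -0.16 to 0.12 with each library left out in turn, being above 0 without KO replicate 1 (0.074) and without WT replicate 3. That of *Cacna1g* became -0.055 with the length and GC correction in limma and -0.053 with it in DESeq2. That of *Cacnb1* became -0.067 with rescaling to the same total and -0.082 with DESeq2 without KO replicate 2, and ran from -0.080 without KO replicate 2 to 0.057 with each library left out. It was -0.027 without WT replicate 1 and -0.012 without WT replicate 3. That of *Rrad* became -0.028 with rescaling and -0.031 with DESeq2 without KO replicate 2, and ran from -0.17 without WT replicate 1 to 0.31 without KO replicate 1, being -0.060 without KO replicate 2 and -0.11 without KO replicate 3. Rescaling moved the median of all genes from -0.0043 to -0.077. With it the estimate was 0.38 for *Cacna1c*, 0.39 for *Cacna2d1*, 0.28 for *Cacnb2* and 0.43 for *Cacna1h*. Levels per kilobase over all 6 libraries moved with the merged exon length for 8 genes, for example to 202 for *Cacnb2* and 496 for *Cacna1c*.

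The replicate numbers come from the labels and do not mark a shared animal. Deviations of same-numbered libraries correlated at 0.23, 0.07 and -0.03. With the replicate block, 0 genes passed an adjusted p of 0.05 and 5 had an unadjusted p under 0.05, 4 higher and 1 lower in KO, against 4 without it. Over all genes, 3924 of 16016 had such a p with the block. Precision is limited by 3 hearts per genotype and differs between genes, with 95% intervals of the log2 fold change from -0.24 to 0.26 for *Cacnb1* and from -0.49 to 0.58 for *Rrad*.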
